A study of Mus musculus with 4 samples.

Results

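Type 2 vomeronasal receptor genes (symbol Vmn2r followed by a digit) were examined for accessible chromatin in sorted mouse hair follicle stem cells. Of 21887 protein-coding genes in the RefSeq gene table of mouse build GRCm38.p6, the assembly also called mm10, 123 carried such a symbol, and all 123 were taken as members. Positions were used for 122 of them, since Vmn2r122 is listed on chromosome 4 ahead of the first peak of either list and its place was not usable. Each member was represented by a window of the gene body plus 1 kb on each side.

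ATAC-seq marks open DNA by the insertions of the Tn5 transposase. The 4 samples were 2 Irx5KO and 2 WT replicates of hair follicle stem cells, the bulge cells that start new hair growth, gated as CD34+ and Ly-6A/E- and as positive for a marker the labels call CD45f. The protein encoded by Irx5 is an Iroquois homeodomain transcription factor, and the labels name no allele, age, sex or number of animals. Each genotype was represented by 1 pooled peak list made from both of its replicates, which leaves no replicate spread and allows no test between the genotypes. Read depth is not part of the lists, and open chromatin in all cells or in a subset of cells cannot be told apart.

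Type 2 vomeronasal receptors are G protein-coupled receptors of family C with a large extracellular domain. In rodents they sit on basal sensory neurons of the vomeronasal organ, couple to Gnao1 and bind mainly peptides and proteins, such as exocrine gland peptides and urinary proteins. Their genes stand in tandem arrays made by repeated duplication, so that neighbours are often close copies. The small group Vmn2r1 to Vmn2r7 differs from the rest, in that its members are expressed together with another type 2 receptor in the same neuron.

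The likeness of the copies is visible in the 250 bases ahead of the annotated start, taken from RefSeq promoter sequences on GRCm38.p6 and written 5′ to 3′ on the strand of the gene. The pair Vmn2r41 and Vmn2r40 is shown because its members had the same 250 letters and, in WT, lay under peaks among the widest of any member. Capitals mark the palindrome ACANNTGT, the published binding motif of Iroquois proteins.
Vmn2r41, chr7:8161552-8161801, minus strand: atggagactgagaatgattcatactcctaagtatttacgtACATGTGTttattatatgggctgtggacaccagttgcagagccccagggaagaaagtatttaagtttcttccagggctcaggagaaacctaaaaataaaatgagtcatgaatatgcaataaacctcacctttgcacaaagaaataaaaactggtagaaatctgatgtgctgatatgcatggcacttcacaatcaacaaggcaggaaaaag
Vmn2r40, chr7:8931403-8931652, minus strand: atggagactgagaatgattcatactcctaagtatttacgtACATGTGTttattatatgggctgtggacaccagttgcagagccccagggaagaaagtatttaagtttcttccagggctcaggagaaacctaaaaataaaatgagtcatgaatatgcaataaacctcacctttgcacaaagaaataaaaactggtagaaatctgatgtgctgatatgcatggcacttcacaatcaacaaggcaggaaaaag
In WT a single peak covered all 250 bases at each gene, 16020 bp wide at Vmn2r41 and 16030 bp wide at Vmn2r40. In Irx5KO, peaks covered 64.4% of these bases at Vmn2r41 and 84% at Vmn2r40. A peak over identical letters could not be assigned to either copy from the sequence alone, and how multiply mapped reads were placed is not given in the sources used here. Peaks at close copies are therefore uncertain as to which copy they belong to.

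A second set comes from chromosome 17 and holds Vmn2r116, the receptor of the male tear peptide ESP1. Capitals in Vmn2r114 and Vmn2r115 mark the 2 bases at which these copies differed from each other, and capitals in Vmn2r116 mark ACANNTGT.
Vmn2r114, chr17:23312314-23312563, minus strand: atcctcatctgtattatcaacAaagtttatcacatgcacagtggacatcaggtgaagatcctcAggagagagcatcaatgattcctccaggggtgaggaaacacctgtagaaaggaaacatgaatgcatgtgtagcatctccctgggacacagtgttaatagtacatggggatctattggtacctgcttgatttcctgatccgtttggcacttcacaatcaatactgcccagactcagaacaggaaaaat
Vmn2r115, chr17:23343727-23343976, plus strand: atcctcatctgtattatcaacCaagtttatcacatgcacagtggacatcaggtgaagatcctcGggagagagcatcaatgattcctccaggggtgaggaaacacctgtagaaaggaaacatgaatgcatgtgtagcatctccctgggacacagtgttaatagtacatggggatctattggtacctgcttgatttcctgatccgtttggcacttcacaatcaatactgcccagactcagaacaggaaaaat
Vmn2r116, chr17:23384553-23384802, plus strand: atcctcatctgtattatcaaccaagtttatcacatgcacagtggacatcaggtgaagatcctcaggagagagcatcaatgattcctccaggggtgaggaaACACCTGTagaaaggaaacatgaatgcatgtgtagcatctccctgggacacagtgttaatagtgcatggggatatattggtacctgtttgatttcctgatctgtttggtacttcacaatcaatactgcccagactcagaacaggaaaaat
Each of these 3 promoters lay wholly inside a peak in both lists. In Irx5KO the peaks at Vmn2r114 and Vmn2r115 were both 710 bp wide and had the same score of 161. In WT they were 1400 and 700 bp wide, with scores of 207 and 189.

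The last set shows how far the starts differed. Vmn2r26, a receptor reported to detect peptide ligands of major histocompatibility proteins, had a peak in both lists, and Vmn2r65, reported to respond to a submandibular gland protein, had none at its start. Capitals mark a TATA box match (TATAAA on either strand).
Vmn2r26, chr6:124024508-124024757, plus strand: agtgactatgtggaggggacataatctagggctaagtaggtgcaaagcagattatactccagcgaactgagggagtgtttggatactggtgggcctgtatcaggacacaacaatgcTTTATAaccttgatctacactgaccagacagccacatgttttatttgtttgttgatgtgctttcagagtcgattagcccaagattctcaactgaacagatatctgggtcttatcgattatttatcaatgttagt
Vmn2r65, chr7:84964010-84964259, minus strand: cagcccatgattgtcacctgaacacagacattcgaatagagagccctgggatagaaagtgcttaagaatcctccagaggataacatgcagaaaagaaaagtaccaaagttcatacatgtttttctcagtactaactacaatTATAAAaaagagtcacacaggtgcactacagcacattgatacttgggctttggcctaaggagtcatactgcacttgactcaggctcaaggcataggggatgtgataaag
Vmn2r29 was chosen after its values were seen, because the peak at its start held the highest rank of its cluster in Irx5KO. Capitals mark its 17 CpG dinucleotides.
Vmn2r29, chr7:7278290-7278539, minus strand: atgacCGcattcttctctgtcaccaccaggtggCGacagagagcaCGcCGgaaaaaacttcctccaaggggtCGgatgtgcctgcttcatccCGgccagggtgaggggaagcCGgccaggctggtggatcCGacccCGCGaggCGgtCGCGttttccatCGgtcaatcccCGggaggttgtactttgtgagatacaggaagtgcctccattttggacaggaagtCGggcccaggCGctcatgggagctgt
This stretch had a GC content of 60.8%, against a median of 38% over the 116 member promoters of 300 bases. The peak over it was 860 bp wide in Irx5KO and 890 bp wide in WT, and Vmn2r29 was the single gene of the table within 2 kb.

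Every member with a usable position had at least 1 peak in its window in both lists. The 122 of 122 members compare with 92.1% of all 21777 protein-coding genes with a usable position in Irx5KO, 91.1% in WT and 89.1% in both. The members were longer than most genes, and the gap was smaller at like length. Of 4247 coding genes of the middle length of the members, 4151 had a peak in Irx5KO and 4104 in WT. No member had a peak in 1 list alone, against 3.01% of protein-coding genes in Irx5KO only and 2.02% in WT only. The member windows held 1667 distinct Irx5KO peaks and 1739 distinct WT peaks, where the overlapping windows of Vmn2r1 and Vmn2r2 were counted once. This came to 48.5 and 50.6 peaks per 100 kb, against 15.3 and 15.5 over all protein-coding genes.

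Peaks filled a larger share of the member windows than of gene windows in general. Of 3437 kb in the member windows, 45.6% was covered by Irx5KO peaks and 49.7% by WT peaks, while all protein-coding windows were covered to 11.5% and 11.4%. Coding genes of a length like that of the members were covered to 13.3% and 12.7%. Covered share was at least 50% in 52 members in Irx5KO and 59 in WT, against 6.77% and 6.97% of all protein-coding genes. The base pairs covered in both lists made up 41.3% of the member windows.

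Other receptor families of the same sensory system were covered to different degrees. The 228 type 1 vomeronasal receptor genes (Vmn1r), which are also tandem copies, were covered to 41.3% in Irx5KO and 42.6% in WT. The 1109 olfactory receptor genes (Olfr) were covered to 14.5% and 16.7%. The 145 type 2 vomeronasal pseudogenes, which encode no receptor, were covered to 59.0% and 61.2% over their pooled windows, above the members themselves. Gene by gene the order was the other way. The median pseudogene was covered to 31.1% in Irx5KO and 37.5% in WT, against 44.5% and 49.4% for the median member. A peak was found at 111 of the 145 pseudogenes in Irx5KO and at 108 in WT.

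Covered share varied more between the genomic clusters than between the genotypes. Members closer than 1 Mb on a chromosome were joined, which gave 12 clusters of at least 2 genes and 6 single genes. The plot of each member by cluster shows the full spread.

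**Figure D1:**
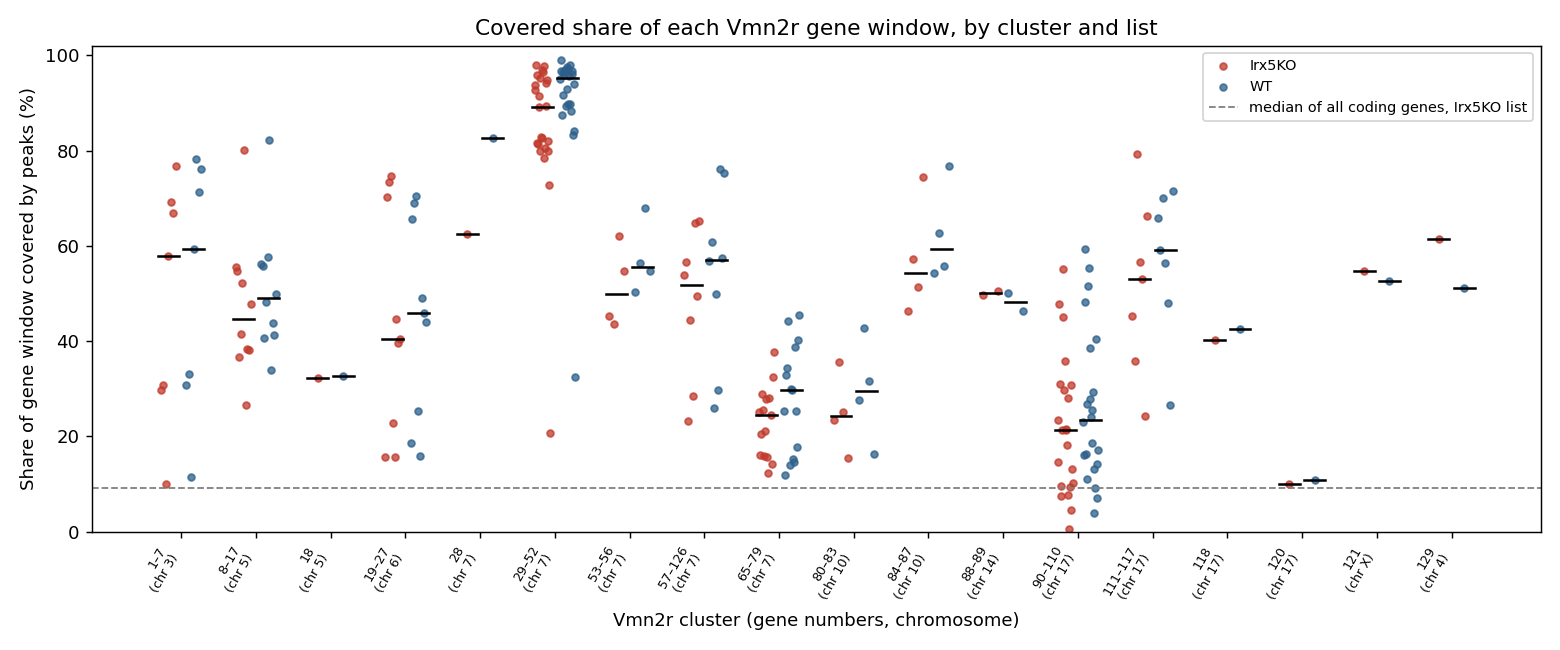
Share of each member window covered by peaks (y axis, %) by cluster along the x axis, with 1 point per gene, Irx5KO in red and WT in blue, and a black bar at the median of the cluster. Members of Vmn2r29 to Vmn2r52 sit near the top with 1 exception (Vmn2r52), while Vmn2r90 to Vmn2r110 reach down to 0.566% in Irx5KO at Vmn2r105; the dashed line marks the median protein-coding gene of the Irx5KO list at 9.12%.

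The highest covered share was found on the proximal part of chromosome 7. The 24 genes from Vmn2r29 to Vmn2r52 (chr7:7212996-10176286) were covered to 86.8% in Irx5KO and 91.8% in WT. Vmn2r31 had the highest share of any member in both lists, 97.9% in Irx5KO and 98.98% in WT. Vmn2r52, at the edge of the same array, was covered to 20.6% and 32.4% only, and the remaining 23 genes had Irx5KO shares between 72.8% and 97.9% and WT shares between 83.2% and 98.98%. Without these 23 genes the members were covered to 37.4% and 41.2%, still above the background.

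Peaks in this array were wide rather than many. The cluster held 276 Irx5KO peaks with a median width of 1130 bp and 231 WT peaks with a median width of 1420 bp, against medians of 530 and 510 bp over all members and 400 and 380 bp over all gene windows. The widest member peak of the Irx5KO list ran for 17770 bp at Vmn2r35 (chr7:7794141-7811910). In the WT list it ran for 19560 bp at Vmn2r31 (chr7:7397771-7417330). Of the cluster's peaks, 98.6% in Irx5KO and 93.1% in WT were shared, that is, they overlapped a peak of the other list by at least 1 bp. Such an overlap is easily met in windows that the other list covered to 91.8% (WT) and 86.8% (Irx5KO). The median score rank of the cluster's peaks within the list was 41.1 in Irx5KO and 48.5 in WT, where 100 is the highest score.

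A middle group of clusters was covered to between 44.9% and 61.9% in Irx5KO and to between 45.6% and 66.2% in WT. The family as a whole stood at 45.6% and 49.7%. Vmn2r84 to Vmn2r87 on chromosome 10 were covered to 61.9% in Irx5KO and 66.2% in WT. Vmn2r53 to Vmn2r56 on chromosome 7 had shares of 52.7% and 57.8%, and Vmn2r111 to Vmn2r117 on chromosome 17 had 51.2% and 57.5%. For Vmn2r8 to Vmn2r17 on chromosome 5 the shares were 50.4% and 53.7%, led by Vmn2r13 with 80.2% and 82.2%. The 8 genes Vmn2r57 to Vmn2r63 and Vmn2r126 on chromosome 7 were covered to 46.3% and 51.5%. Vmn2r19 to Vmn2r27 on chromosome 6, the cluster of Vmn2r26, stood at 44.9% and 45.6%.

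The lowest clusters were still covered more than protein-coding genes in general. Vmn2r90 to Vmn2r110, the 22 genes on chromosome 17 (chr17:17703941-20596259), were covered to 24.0% in Irx5KO and 28.4% in WT. Within them Vmn2r97 reached 55.2% and 55.4%, whereas Vmn2r108 had 4.55% and 7.09%. Vmn2r105 was the lowest of all members, with 1 Irx5KO peak covering 0.566% of its window and 5 WT peaks covering 3.95%. The 15 genes Vmn2r65 to Vmn2r79 on chromosome 7 were covered to 25.3% and 30.4%, and Vmn2r80 to Vmn2r83 on chromosome 10 to 26.3% and 31.4%. Among the 6 single genes the share ran from 9.89% in Irx5KO and 10.8% in WT at Vmn2r120 up to 62.5% and 82.7% at Vmn2r28.

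The co-receptor group on chromosome 3 was split along its array. Vmn2r1, with 66 Irx5KO and 64 WT peaks in the longest window of the group, was covered to 29.8% and 30.7%, and Vmn2r2, whose window overlaps it, to 30.8% and 33.0%. Vmn2r3 was at 10.01% and 11.4%. The next 4 genes were covered to more than 50% in both lists, namely Vmn2r4 with 57.9% and 59.3%, Vmn2r5 with 69.3% and 78.2%, Vmn2r6 with 67.0% and 71.3%, and Vmn2r7 with 76.8% and 76.1%. The promoters of Vmn2r6 and Vmn2r7 differed at 2 of 300 bases. That of Vmn2r3 had no close copy, with an edit distance of 147 to the nearest member promoter, that of Vmn2r20 in another cluster.

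Receptors with a reported ligand did not stand together. Vmn2r88, reported to respond to haemoglobin, was covered to 49.6% in Irx5KO and 50.2% in WT. Vmn2r26 had 39.5% and 45.8%. Vmn2r65 had 3 peaks in each list, all 3 shared, covering 25.1% and 25.3%. Vmn2r116 had the lowest share of its cluster, 24.3% and 26.5%.

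High coverage was not confined to the genes of an array. The stretches between the member windows were covered more than the windows themselves in 7 of the 12 clusters in Irx5KO and in 6 in WT. In Vmn2r29 to Vmn2r52 these stretches were covered to 88.2% in Irx5KO and 90.9% in WT. In Vmn2r80 to Vmn2r83 they were covered to 65.2% and 67.3%, far above the windows, and in Vmn2r1 to Vmn2r7 to 61.9% and 69.3%. Over the 500 kb on each side of a cluster, Irx5KO coverage lay between 20.01% and 51.4% and WT coverage between 20.8% and 54.3%, and in 10 of 12 clusters the windows lay above those flanks in each list. Both whole lists covered 17.1% and 17.5% of the chromosomes' span.

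**Figure D2:**
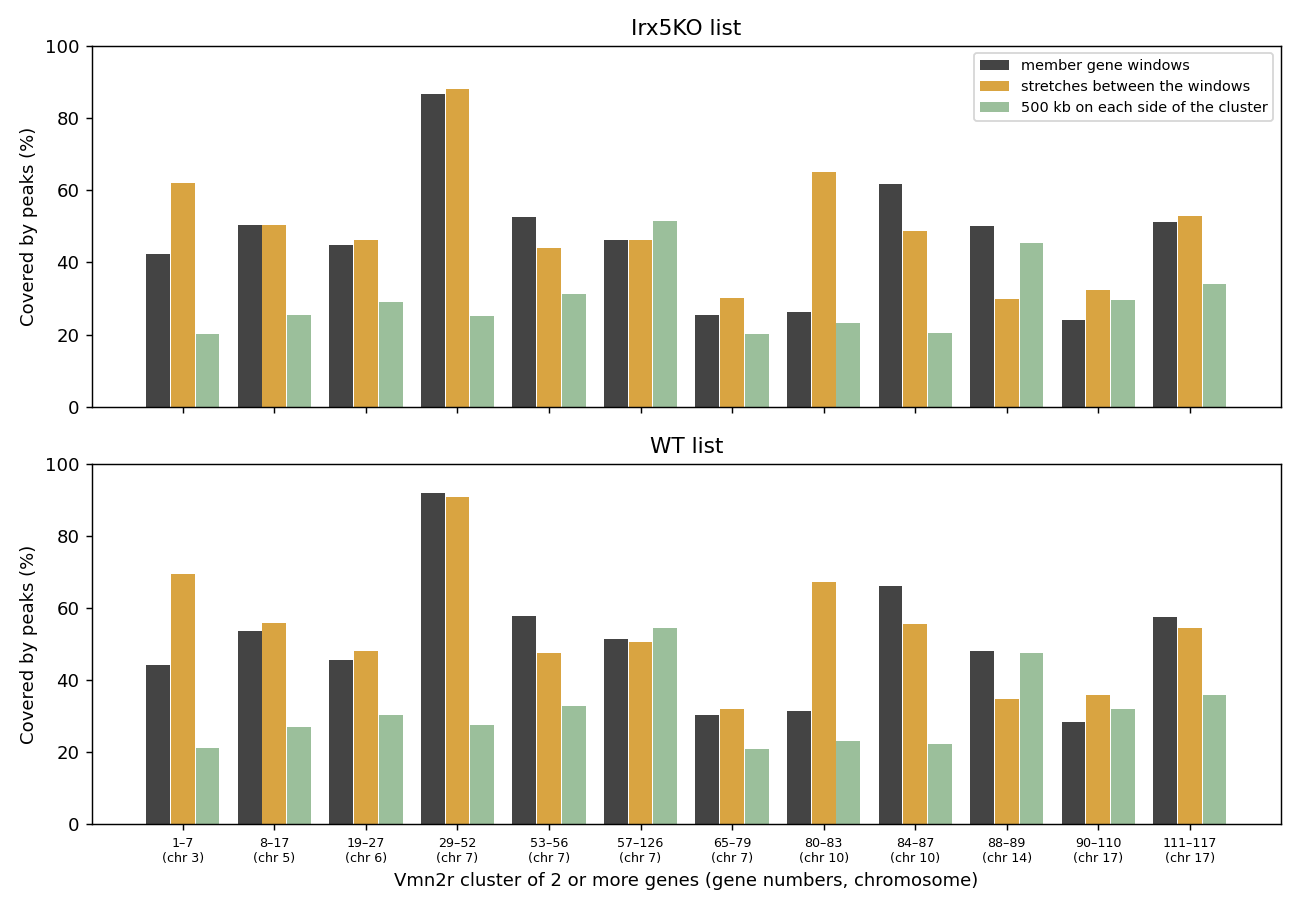
Share covered by peaks (y axis, %) in each cluster of at least 2 genes (x axis) for the member windows, the stretches between them and the 500 kb on each side, with Irx5KO above and WT below. In Vmn2r29 to Vmn2r52 windows and stretches between them both exceed 86% while the flanks lie at 25.1% in Irx5KO and 27.4% in WT.

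Member peaks ranked below the middle of their lists, which also held for other gene sets. Score is the authors' own value per peak and was used only as a rank within each list. The median rank of member peaks was 36.3 in Irx5KO and 40 in WT, against 44.8 and 44.0 for peaks in all gene windows. Only 4.26% of Irx5KO and 4.83% of WT member peaks lay in the top decile of their list. At equal width the ranks were also lower, since member peaks of 400 to 1000 bp had a median rank of 38.5 in Irx5KO, against 59.4 for all Irx5KO peaks of that width. In WT the values for that width were 42.9 and 61.4.

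A few member peaks ranked very high in both lists. The highest of all was a narrow peak in the window of Vmn2r77 (chr7:86806491-86806740 in Irx5KO, 10 bp longer in WT), with a rank of 99.9 in each list and widths of 250 and 260 bp. The peak at the start of Vmn2r29 ranked 99.8 in Irx5KO and 98.7 in WT. At Vmn2r129 on chromosome 4 the top peak ranked 99.8 and 99.4, though it lay almost wholly beyond the window, which the Irx5KO peak overlapped by 9 bp and the WT peak by 19 bp. The top peak at Vmn2r87 ranked 99.3 and 99.4. All of these were shared.

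Most member peaks were found in both genotypes. In Irx5KO 1482 of 1667 peaks were shared, or 88.9% (95% Wilson interval 87.3 to 90.3, counting error only), against 72.9% of peaks in all gene windows. In WT 1374 of 1739 were shared, or 79.0% (77.0 to 80.9), against 71.3%. Sharing exceeded that of the whole list in the low deciles of score: in the lowest, 62.7% of Irx5KO member peaks were shared, against 22.7% of all Irx5KO peaks. In WT the lowest decile gave 33.6% and 18.2%. An overlap of 1 bp is met more easily where the other list covers more of the window. WT peaks covered 49.7% of the member windows and Irx5KO peaks 45.6%, against 11.4% and 11.5% of all coding windows. How much of the higher sharing goes with this coverage was not tested.

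**Figure D3:**
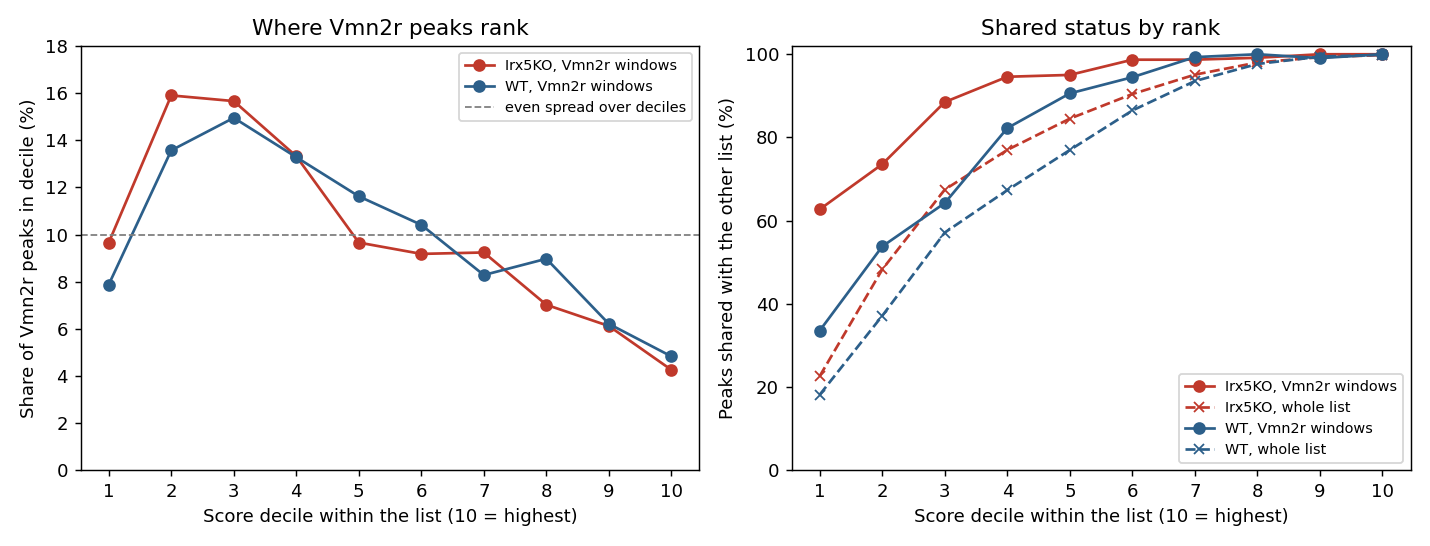
Left, the share of member peaks (y axis, %) in each decile of score within the list (x axis, 10 is the highest), with the dashed line at an even spread. Right, the share of peaks shared with the other list by decile, for member windows (circles) and whole lists (crosses); member peaks gather in deciles 2 to 4, and in decile 1 their shared share is 62.7% in Irx5KO and 33.6% in WT.

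Peaks of 1 list only were mostly narrow and low in rank. The 185 Irx5KO-only and the 365 WT-only member peaks both had a median width of 270 bp, with median ranks of 13.8 and 18.9. Among peaks above the median score of their list, 5 of 597 Irx5KO and 12 of 673 WT member peaks were without an overlap. Most high-scoring peaks of the whole lists were shared too. In decile 6 of score 90.4% of all Irx5KO and 86.5% of all WT peaks were shared, and in decile 10 99.8% and 99.9%. The highest-ranked Irx5KO-only peak, in the window of Vmn2r91, was 270 bp wide with a rank of 75.5. The highest-ranked WT-only peak, in the window of Vmn2r1, was 370 bp wide with a rank of 82.4, and the widest WT-only peak ran for 1400 bp. Irx5KO-only peaks made up 33.6% of all peaks of 1 list only (29.8 to 37.7), against 48.3% over all protein-coding genes, 37.6% over Vmn1r genes and 35.7% over Olfr genes.

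The WT list covered more of most member windows, by a small margin. Covered share was higher in WT in 105 members and higher in Irx5KO in 17, while 36.4% of protein-coding genes were covered more in WT. The median difference, Irx5KO minus WT, was -3.02 percentage points over the members and 0.299 over all protein-coding genes. A WT excess of at least 5 points was found in 48 of 122 members, against 6.61% of protein-coding genes, and an Irx5KO excess of that size in 3 members, against 11.4%. The cut of 5 points is absolute, and the median covered share was 44.5% and 49.4% at members but 9.12% and 8.18% at coding genes. WT and Irx5KO excesses of that size numbered 76 and 52 of 228 Vmn1r genes, 326 and 148 of 1109 Olfr genes, and 28 and 10 of 145 pseudogenes. WT was higher at 15 of the 18 positions and Irx5KO at 3. The WT excess was not confined to the member windows. In every cluster of at least 2 genes, the stretches between the windows were also covered more in WT. So were the 500 kb flanks of these clusters, except at Vmn2r80 to Vmn2r83 (23.21% in Irx5KO and 23.18% in WT). The whole lists covered 17.1% (Irx5KO) and 17.5% (WT) of the chromosomes' span. Over the Vmn1r genes, the Olfr genes and the type 2 pseudogenes the median difference was 0. Vmn1r genes were covered more in WT in 111 cases and more in Irx5KO in 96, Olfr genes in 501 and 304, and the pseudogenes in 71 and 32. With 1 list per genotype, genotype cannot be told apart from depth or the threshold of peak calling.

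The largest WT excess fell on 2 neighbours of chromosome 17. Vmn2r112 was covered to 35.8% by 12 Irx5KO peaks and to 59.2% by 20 WT peaks. Vmn2r111 was covered to 45.3% by 15 and to 65.9% by 24. Of their WT peaks, 10 and 11 were absent from the Irx5KO list, whereas all of their Irx5KO peaks were shared. Vmn2r28 had 13 peaks in each list and shares of 62.5% and 82.7%, so at this gene the WT peaks were wider rather than more numerous. In the Vmn2r29 to Vmn2r52 array the largest WT excess was at Vmn2r39, with 78.5% and 95.6%, and in Vmn2r65 to Vmn2r79 it was at Vmn2r69, with 25.5% and 44.2%. In Vmn2r90 to Vmn2r110 it was at Vmn2r92, with 30.9% and 48.3%, where 13 of 26 WT peaks were unshared.

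A few members went the other way. Vmn2r129 was covered to 61.5% in Irx5KO and 51.1% in WT. Vmn2r113, in the same cluster as Vmn2r112, had 79.2% and 70.1%. In the chromosome 6 cluster Vmn2r20 had 70.2% and 65.6% and Vmn2r22 had 74.6% and 70.4%. On chromosome 14 Vmn2r89 had 50.6% and 46.4%, beside nearly equal shares at Vmn2r88.

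The direction depended on peak width in some clusters. With peaks up to 2000 bp alone, Vmn2r29 to Vmn2r52 were covered to 24.8% in Irx5KO and 18.1% in WT, and over all members the difference shrank to -0.555 points.

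At the starts, members resembled other genes in how often they had a peak. Promoter sequences were matched for 116 members, all but Vmn2r5, Vmn2r21, Vmn2r46, Vmn2r47, Vmn2r76, Vmn2r77 and Vmn2r122. The first listed promoter of each gene was used. At some members, such as Vmn2r1, Vmn2r2, Vmn2r4, Vmn2r6, Vmn2r94 and Vmn2r96, this start lay well inside the gene body. A peak overlapped the promoter of 300 bases in 72 members in Irx5KO (62.1%, interval 53.0 to 70.4), against 67% of 17492 coding promoters. In WT it did so in 80 (69.0%, 60.1 to 76.7), against 64.1%. Both lists had a promoter peak in 70 members and neither did in 34. Irx5KO only had one at 2, Vmn2r68 and Vmn2r72, against 6.44% of coding promoters, and WT only at 10, against 3.49%.

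Promoter peaks differed between clusters. All 22 matched promoters of Vmn2r29 to Vmn2r52 had a WT peak and 21 had an Irx5KO peak, and all 7 of Vmn2r111 to Vmn2r117 had one in both lists. The Vmn2r29 to Vmn2r52 array, with windows covered to 86.8% and 91.8%, thus gave 21 of the 72 Irx5KO and 22 of the 80 WT promoter peaks of the family. In Vmn2r90 to Vmn2r110, 5 of 22 had an Irx5KO peak and 8 a WT peak.

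The shape around the start differed from that of other genes. Over all coding genes, 61.6% of the bases within 200 bp of the start were covered in Irx5KO and 56.8% in WT, falling to 15.8% and 15.7% at a distance of 5 to 10 kb. In Vmn2r29 to Vmn2r52 there was little such contrast, with 91.1% and 97.1% near the start and 85.2% and 88.5% away from it. For the other 94 members the start was covered to 37.6% and 46.3%, and the distant bases to 45.4% and 48.3%.

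**Figure D4:**
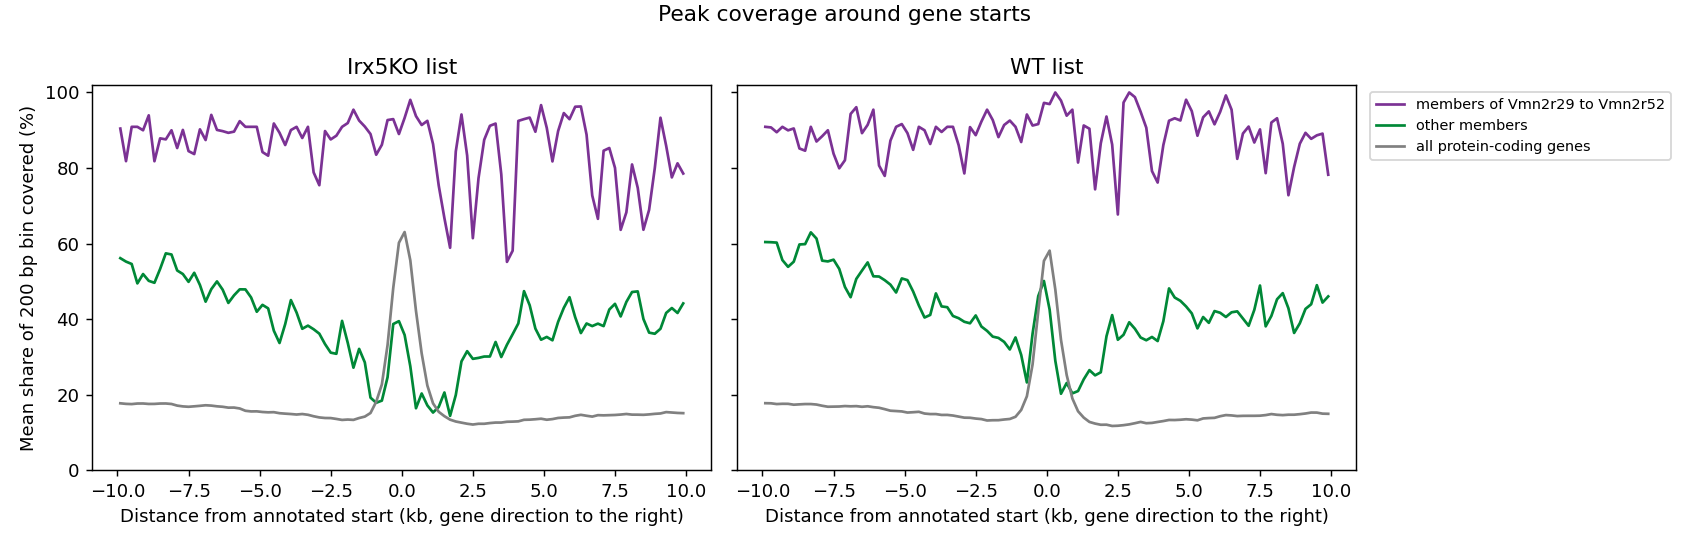
Mean share of each 200 bp bin covered by peaks (y axis, %) by distance from the annotated start (x axis, kb, gene direction to the right), Irx5KO left and WT right, for the 22 members of Vmn2r29 to Vmn2r52, 94 other members and 17492 coding genes. All coding genes rise to 63.1% in Irx5KO and 58.1% in WT at the start, the array on chromosome 7 stays above 55% in every bin, and the other members have a narrow rise at the start between low bins, down to 14.4% in Irx5KO and 20.3% in WT.

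Member promoters were poor in CpG. Their median GC content was 38% and their median number of CpG was 1, against 56.3% and 13 over all coding promoters, and 32 members (27.6%) had no CpG, against 5.20%. The palindrome ACANNTGT, searched on both strands, which read alike, was found in 54 member promoters (46.6%), against 6.19% of all coding promoters, 10.7% of Vmn1r and 16.7% of Olfr promoters. It was unevenly spread over the clusters. It was present in 20 of 22 promoters of Vmn2r29 to Vmn2r52, in 7 of 7 of Vmn2r111 to Vmn2r117 and in 76.9% of those of Vmn2r65 to Vmn2r79. It was found in 4 of 22 in Vmn2r90 to Vmn2r110, in 1 of 6 in Vmn2r1 to Vmn2r7, in 0 of 8 in Vmn2r19 to Vmn2r27 and in 0 of 4 in Vmn2r80 to Vmn2r83. Of the 70 promoters with a peak in both lists 40 held it (57.1%), and of the other 46 promoters 14 did (30.4%). Without Vmn2r29 to Vmn2r52 and Vmn2r111 to Vmn2r117 this difference was gone, with 13 of 42 promoters with a peak in both lists (30.95%) and 14 of the other 45 (31.1%). TATAAA on either strand was found in 27 (23.3%), against 13.3%. The core palindrome of the Olf1/EBF factors, also searched on both strands, was found in 0, against 0.943%. A match says that the letters are present, not that a factor binds.

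Members with a close copy were covered more. Likeness was measured as the number of base differences between 300-base promoters, from each member to its closest other member. Differences were edit distances, so insertions and deletions also counted. The 34 members with fewer than 15 differences had a median covered share of 75.7% in Irx5KO and 76.1% in WT. With 15 to 29 differences the medians over 29 members were 41.6% and 46.4%, with 30 to 59 over 31 members 28.1% and 29.7%, and with 60 or more over 22 members 24.3% and 24.2%. Without Vmn2r29 to Vmn2r52 the 19 closest members still had medians of 56.6% and 65.6%. Across the 116 genes Spearman's rho was -0.621 in Irx5KO and -0.656 in WT and Pearson's r was -0.453 and -0.480, given as a description, since the genes of an array share sequence and position. Without Vmn2r29 to Vmn2r52 rho was -0.608 and -0.660 over 94 genes.

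**Figure D5:**
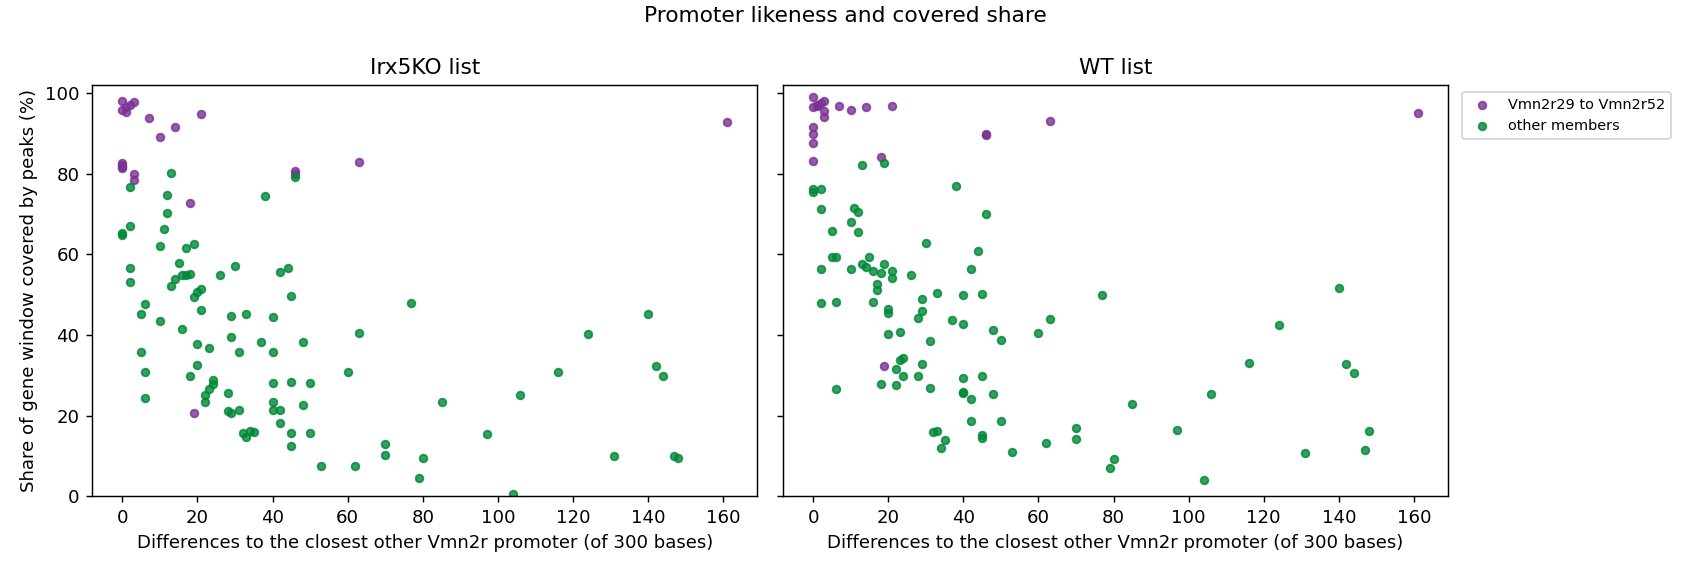
Share of the member window covered by peaks (y axis, %) against the number of base differences of its 300-base promoter to the closest other member (x axis), Irx5KO left and WT right, with 1 point per gene and Vmn2r29 to Vmn2r52 in purple. Points with fewer than 15 differences have medians of 75.7% and 76.1%, those with 60 or more 24.3% and 24.2%.

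Promoters of 4 pairs had the same 300 letters: Vmn2r31 and Vmn2r33, Vmn2r32 and Vmn2r49, Vmn2r34 and Vmn2r45, and Vmn2r62 and Vmn2r126. At Vmn2r31 and Vmn2r33 the promoter peaks ranked 79.8 and 68.7 in Irx5KO and 80.6 and 75.4 in WT, and at Vmn2r34 and Vmn2r45 38.5 and 44.5 in Irx5KO and 46.4 and 48.3 in WT. At Vmn2r62 and Vmn2r126 they ranked 15.1 and 15.5 in Irx5KO and 33.0 and 30.8 in WT. At Vmn2r32 and Vmn2r49 they ranked 40.7 and 37.7 in Irx5KO and 42.4 and 42.7 in WT. Over all 14 pairs with at most 5 differences and a peak at both promoters, the median gap in rank was 7.22 in Irx5KO and 3.89 in WT. With 6 to 15 differences it was 5.15 and 6.61. Pairs with more than 60 differences had median gaps of 21.5 and 19.2.

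Listed genes of vomeronasal neurons, Gnai2 and Meis2 among them, were covered less over their pooled windows, with wide differences between genes. Of 24 such genes, 22 had a peak in each list, much like the 92.1% of all coding genes in Irx5KO and 91.1% in WT. The pooled windows of the 24 genes were covered to 6.98% in Irx5KO and 6.08% in WT, against 11.5% and 11.4% for all coding genes. The median gene of the set was covered to 8.67% and 6.86%, against 9.12% and 8.18%. The highest share was at Gng8, with 35.5% and 43.6%. Trpc2, the transduction channel of these neurons, had 1 shared peak covering 2.16% and 2.22% of its window, and Gnao1 was covered to 7.13% and 6.74%. Omp, the marker of mature olfactory and vomeronasal neurons, had no peak in either list, H2-M11 had none in Irx5KO and Gng13 none in WT. Among the H2-M genes, class Ib histocompatibility genes expressed with type 2 receptors, H2-M10.4 was covered to 24.6% and 39.4% and H2-M10.5 to 31.2% and 31.4%. H2-M10.1 had 26.9% and 39.7%, H2-M10.2 had 30.4% and 37.9%, H2-M10.3 had 24.6% and 36.7%, and H2-M10.6 had 21.7% and 26.3%. All of these H2-M10 shares lay above those over all coding genes. H2-M1 had 9.11% and 19.2%, H2-M9 had 10.04% and 11.2%, and H2-M11 had no covered base in Irx5KO and 4.81% in WT.

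The labelled cell type was compared with its markers. All 9 hair follicle stem cell genes (Cd34, Krt15, Sox9, Lhx2, Tcf7l1, Nfatc1, Itga6, Krt5 and Krt14) had a peak in both lists, with 9.40% of their windows covered in Irx5KO and 6.24% in WT, which is also below the share over all protein-coding genes. All 9 were covered more in Irx5KO, as were 12033 of all 21777 coding genes. The same direction held at 3 of 3 endothelial, 2 of 3 melanocyte and 1 of 4 haematopoietic markers, and at 2 of 5 markers of vomeronasal and olfactory neurons. Of the markers of other cells, 2 of 4 haematopoietic genes had a peak in Irx5KO and 3 in WT, 2 and 3 of 3 melanocyte genes, 3 and 3 of 3 endothelial genes, and 4 and 3 of 5 genes of vomeronasal and olfactory neurons. A peak in a window is common in these lists, at 92.1% of all coding genes in Irx5KO, 91.1% in WT and 89.1% in both. These counts therefore do not tell cell types apart. Lhx2 was also among the listed genes of vomeronasal neurons. At the targeted gene Irx5 the window held 5 Irx5KO peaks, 2 of them shared, and 2 WT peaks, both shared.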

How the data were processed

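Per the labels, ATAC-seq was carried out on sorted hair follicle stem cells with 2 samples per genotype, and the authors deposited 1 peak list for both replicates of a genotype. Per the submitters' processing notes the build was mm10, with Bowtie2 and Genrich 0.6 among the tools, beside cutadapt 2.9, FastQC, ChIPseeker 1.24.0 and deepTools 3.4.2. Their settings, the treatment of duplicate or multiply mapped reads and any shift for the Tn5 cut were not stated in these sources. The deposited lists give a position and a score per peak, a whole number that is the authors' own value, used here only to rank peaks within a list. The deposited signal and significance columns hold 0 throughout, and these and the summit column were not used. Read depth is not in the lists, and Wilson intervals cover counting error only.

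Gene positions and promoters (250 bp before to 50 bp after the start) came from RefSeq on GRCm38.p6, and the first listed promoter of each gene was used. Of 21887 protein-coding genes, 110 had no usable position. Peaks on the 21 standard chromosomes were assigned to a window of the gene body plus 1 kb on each side by an overlap of 1 bp, and were called shared by an overlap of 1 bp with the other list. Clusters joined members closer than 1 Mb. The planned protein identities were replaced by edit distances between promoters, since no protein table was used here. Promoter differences were counted with edlib 1.3.9.post1. Named genes were Vmn2r1 to Vmn2r7, Vmn2r26, Vmn2r65, Vmn2r88 and Vmn2r116, plus, per cluster, the member with the most peaks and those with the largest excess of covered share in each direction, and the members with the highest-ranked and widest peaks. Others were named after their values were seen. The members and lists were chosen with earlier results of these data known. Alternatives changed the window, score threshold, width limit, overlap rule and list length. Leaving out Vmn2r29 to Vmn2r51, or the 2 clusters richest in a motif, was added after seeing the data. The overlap code was tested on simulated data. Computations used Python 3.11.15, numpy 2.4.6, pandas 2.3.3, scipy 1.17.1 and matplotlib 3.10.9.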

Additional observations from a re-analysis of the deposited data

How the results depend on the processing

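No paired analysis was possible because each genotype has 1 pooled list, and leaving out a replicate was not possible for the same reason. All values rest on 1 list per genotype, and depth limits which narrow, low-scoring peaks are listed. Of 178 values under alternatives, 68 stayed within their counting interval or rounding, 100 moved and 10 changed direction. With the upper 50% of peaks by score in either list, member windows held 597 Irx5KO and 673 WT peaks, with 99.2% and 98.2% shared, 29.6% and 34.3% of the windows covered, median widths of 1050 and 1030 bp and median ranks of 68.9 and 70.6. With peaks up to 2000 bp, 25.1% and 25.6% was covered, median ranks were 32.4 and 35.1, and 76.2% of WT peaks were shared. Under an overlap of 50% of the peak's own width, 83.9% and 71.3% were shared. Covered shares were 46.1% and 50.04% for the gene body alone and 46.0% and 49.9% with 5 kb on each side, and 49.5% in WT with lists of equal length. Without Vmn2r29 to Vmn2r51, 37.4% and 41.2% was covered, 87.1% and 76.8% of peaks were shared, the median width was 460 bp in both lists and the median WT rank was 37.4.

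The difference in covered share over all members, Irx5KO minus WT, was -4.02 points. It was -3.95 for the gene body, -3.93 with 5 kb, -4.64 in the upper 50%, -0.555 for peaks up to 2000 bp and -3.87 with equal lengths. With peaks up to 2000 bp the direction turned in Vmn2r29 to Vmn2r52 (6.63 points), Vmn2r28 (19.2), Vmn2r118 (7.53), Vmn2r18 (2.46), Vmn2r8 to Vmn2r17 (0.282) and Vmn2r121 (-6.64). It also turned with 5 kb on each side in Vmn2r88 to Vmn2r89 (-2.43) and Vmn2r121 (-3.34), and in the upper 50% in Vmn2r88 to Vmn2r89 (-0.380). Apart from the width limit, which removes the wide peaks by construction, the cause was not tested. Assignment by the midpoint gives no covered share, and the width limit was not applied to the median width. The share of promoters with ACANNTGT, peak in both lists minus the rest, went from 26.7 points to -0.159 without Vmn2r29 to Vmn2r52 and Vmn2r111 to Vmn2r117, an alternative chosen after seeing the data.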
